A study of Mus musculus with 4 samples.

Results

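The skeletal muscle triad is the junction at which a transverse tubule (T-tubule) of the surface membrane meets the sarcoplasmic reticulum (SR), the calcium store of the muscle cell. There, the voltage-sensing L-type calcium channel of the T-tubule passes the electrical signal to the ryanodine receptor, which opens and releases stored calcium, and contraction follows. The channel is built from a pore subunit and auxiliary subunits, an adaptor protein keeps it coupled to the ryanodine receptor, junctophilins hold the membranes together, and small proteins of the SR keep the release channel in place. The 10 genes described here were listed by name for these roles: Cacna1s, Cacnb1, Cacna2d1 and Cacng1 (the L-type channel), Stac3 (the adaptor), Ryr1, Fkbp1a and Trdn (the release channel and its partners), and Jph1 and Jph2 (the junctophilins). All 10 were found among the 53647 genes of the tables, and all 10 passed the filter on low counts that left 15173 genes for testing.

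The experiment measured RNA in mouse primary myotubes, the multinucleated cells that form when cultured myoblasts fuse. The myoblasts were of WT genotype, came from the limbs of pups that were 2 to 3 days old, and were differentiated in medium with 5% horse serum. The 2 EDA-A2 libraries came from myotubes given recombinant ectodysplasin A2 (EDA-A2), a ligand of the tumour necrosis factor family, at 250 ng/mL for 24 h, and the 2 Control libraries came from myotubes labelled as controls of the same time point. All 4 were harvested 72 h after differentiation began. EDA-A2 was added to differentiated cells, so that the comparison asks what the ligand did to the RNA of the triad once myotubes had formed. The labels do not say whether the libraries of a group came from separate cultures or animals, and the p-values therefore measure the spread between these samples only.

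Counts on genes summed to between 29444155 and 29746863 per library, and the TMM scaling factors lay between 0.972 and 1.03. The libraries of a group differed by more than sampling noise (chi-square per gene of 9.33 for Control and 4.45 for EDA-A2). Within a group, neither was thus the other library sequenced again. These values cannot tell whether the libraries came from separate cultures or from the same RNA. The label of myotubes was checked on 14 genes of muscle differentiation, all of which passed the filter, and the genes that define macrophages (C1qa), endothelial cells (Emcn), Schwann cells (Sox10) and neurons (Rbfox3) were at 0 in every library. Markers of dividing cells were present (Top2a, a topoisomerase of the cell cycle, at 8772 to 10613 normalized counts), as was Col3a1, a fibrillar collagen, at 39997 to 46066 normalized counts, and of the other fibroblast markers Col1a1 (4675 to 9277), Pdgfra (247 to 302) and Dcn (75.2 to 135) were present, while Lum and Thy1 were at 0. In bulk samples like these fewer cells of a type and less RNA per cell cannot be told apart.

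Of the 10 triad genes, 2 were lower after EDA-A2 at an adjusted p under 0.05 in edgeR's quasi-likelihood test, and 0 were higher. They were Cacna1s, the voltage-sensing pore of the channel, and Jph2, a junctophilin. Over all genes tested, the same test called 2.13% lower and 2.45% higher. At an unadjusted p under 0.05 there were 4 triad genes, of 2372 genes in all. The DESeq2 Wald test called 3 triad genes lower and 0 higher, adding Cacna2d1, where it called 1.98% of the genes it gave an adjusted p lower. The count of 2 lower became 0 without Control replicate 1, Control replicate 2 or EDA-A2 replicate 1, and 1 without EDA-A2 replicate 2. The median log2 fold change of the 10 was -0.07, beside -0.00 over all genes tested, and the fitted changes ran from -0.36 to 0.20. The normalized counts of the groups did not overlap in 8 of the 10: in 5 both EDA-A2 libraries were below both Control libraries, which held for 22.2% of all genes tested, and in 3 both were above, which held for 22.8%.

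**Figure D1:**
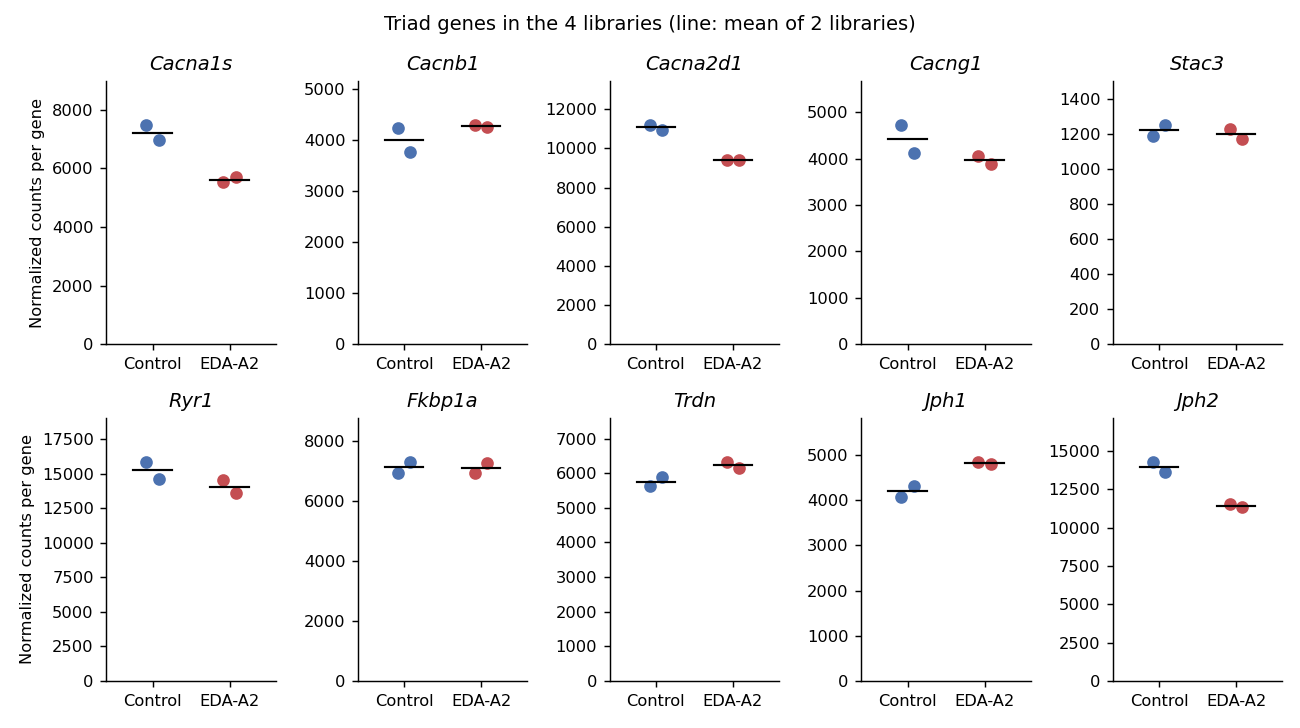
Normalized counts (y axis, linear from 0) of the 10 triad genes in the Control (blue) and EDA-A2 (red) libraries, with 1 point per library and a line at the mean of the 2. Both EDA-A2 points of Cacna1s, Cacna2d1 and Jph2 lie well below both Control points, those of Jph1 lie above, and those of Stac3 and Fkbp1a mix with the Control points.

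Sequence around the start site was looked at for the genes that fell. RefSeq promoter windows (250 bases before to 50 after an annotated start, from the table for assembly GRCm38.p6) were at hand for 6 of the 10 genes in 8 windows, each of which matched GRCm39 exactly once on its chromosome; Cacng1, Stac3, Jph1 and Trdn had none. The E-box, CANNTG on either strand, is the kind of site that the myogenic factors MyoD and myogenin bind. The E-boxes of the genes that fell are shown with 12 bases on each side, 5′ to 3′ on the strand of the gene, the E-box in capitals.
Cacna1s, chr1:135980377-135980406, plus strand: cctcctcgggggCAGATGgggatgtcaccg
Cacna1s, chr1:135980414-135980443, plus strand: tggaaggaatgaCAGCTGcctggccgcagg
Jph2, chr2:163239905-163239934, minus strand: gaaggggcggggCAGCTGggagatctgagc
The Cacna1s matches began 160 and 123 bases before the RefSeq start, and both lie inside the first exon that GENCODE vM39 draws for the gene. The Jph2 match began 9 bases before the start of its first RefSeq window and 29 before that of the second, and 4 of its 6 bases lie in the annotated first exon. Fkbp1a, whose counts overlapped between groups, held the same letters:
Fkbp1a, chr2:151384359-151384388, plus strand: cgccttccgccgCAGCTGcatccgggggtc
In all, 5 of the 8 windows held an E-box, and so did 72.3% of the 32851 windows in the table. Both Jph2 windows are counted, though they hold the same site. Cacnb1, which was not called, also had an E-box, which began 27 bases before the start of its second window. The TATA box (TATAAA, in 13.6% of all windows), the MEF2 site (3.19%) and the NFκB site (4.51%) were found in 0 of the 8.

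Cacna1s encodes the alpha-1S subunit, which senses the voltage of the T-tubule and forms the pore of the L-type channel (GRCm39, chr1:135980259-136047560, plus strand). It had 7477 and 6946 normalized counts in Control replicates 1 and 2 and 5522 and 5692 in EDA-A2 replicates 1 and 2. Both EDA-A2 libraries lay below both Control libraries, and the gap between groups was wider than that within either. The fit gave a log2 fold change of -0.36 with a standard error of 0.07, so that the level fell by 22.2% (adjusted p = 0.00527 by edgeR). The call was kept with EDA-A2 replicate 2 left out (adjusted p = 0.0362) and lost with any other library left out. The edgeR adjusted p was 0.288 without Control replicate 1, 0.188 with Control replicate 2 left out, 0.0608 with EDA-A2 replicate 1 left out and 0.112 when no filter on low counts was used, while the direction stayed and the log2 fold change lay between -0.41 and -0.31 over these and the other alternatives. The non-coding gene Gm37759 overlaps 16.5% of the exonic length of Cacna1s on the opposite strand and had 6 to 9 counts per library.

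Cacna2d1, the alpha-2/delta-1 subunit that aids the channel's passage to the membrane (chr5:16139372-16579509, plus strand), had 11203 and 10961 normalized counts in Control and 9431 and 9396 in EDA-A2. The groups were clearly apart, and within each group the libraries were nearly equal. The log2 fold change was -0.24 with a standard error of 0.07, at an adjusted p of 0.0562 by edgeR, so that it missed the threshold in the test used for the calls, whereas DESeq2 gave an adjusted p of 0.0314.

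Cacnb1 encodes the beta-1 subunit, which binds the pore subunit inside the cell and is needed for it to reach the triad (chr11:97892204-97913860, minus strand). Its normalized counts were 4238 and 3771 in Control and 4301 and 4268 in EDA-A2. The EDA-A2 libraries were just above the higher Control library, and the Control libraries differed from each other by more than the groups did. The log2 fold change of 0.10 with a standard error of 0.07 did not pass the test (adjusted p = 0.602 by edgeR).

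Cacng1, the gamma-1 subunit of the skeletal muscle channel (chr11:107591493-107607408, minus strand), had 4727 and 4116 normalized counts in Control and 4058 and 3893 in EDA-A2. The lower Control library was close to the higher EDA-A2 library. The log2 fold change was -0.15 with a standard error of 0.08 (adjusted p = 0.360 by edgeR).

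Stac3, the adaptor that the channel needs for voltage-dependent calcium release (chr10:127337542-127344696, plus strand), had 1191 and 1254 normalized counts in Control and 1233 and 1176 in EDA-A2. The groups overlapped. Its log2 fold change was -0.02 with a standard error of 0.08 (adjusted p = 0.946 by edgeR), and the sign turned (0.033) when libraries were scaled by total counts.

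Ryr1, the calcium release channel of the SR (chr7:28702769-28824604, minus strand), was the triad gene with the most counts. Its 4 libraries held 15895 and 14626 normalized counts in Control and 14528 and 13644 in EDA-A2. The lower Control library was barely above the higher EDA-A2 library, and each group spread over more than that gap. The log2 fold change of -0.12 with a standard error of 0.07 did not pass the test (adjusted p = 0.499 by edgeR).

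Fkbp1a encodes FKBP12, a small protein that binds the ryanodine receptor and steadies its closed state (chr2:151384382-151404651, plus strand). It had 6950 and 7323 normalized counts in Control and 6953 and 7273 in EDA-A2. The groups overlapped almost entirely. The log2 fold change was -0.00 with a standard error of 0.07 (adjusted p = 0.984 by edgeR), and 0.050 under scaling by total counts.

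Trdn encodes triadin, the SR membrane protein that links the ryanodine receptor to calsequestrin (chr10:32956550-33356376, plus strand). Normalized counts were 5618 and 5889 in Control and 6338 and 6165 in EDA-A2. Both EDA-A2 libraries were higher than both Control libraries, and the log2 fold change was 0.12 with a standard error of 0.07 (adjusted p = 0.437 by edgeR).

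Jph2 is the junctophilin that heart and skeletal muscle share (chr2:163178162-163239920, minus strand). It had 14317 and 13650 normalized counts in Control and 11528 and 11323 in EDA-A2, with no overlap and a gap wider than the spread within either group. The level fell by 18.3%, a log2 fold change of -0.29 with a standard error of 0.07 (adjusted p = 0.0199 by edgeR). It lost the call without any one of the 4 libraries (adjusted p of 0.290 and 0.191 without Control replicates 1 and 2, and 0.133 and 0.204 without EDA-A2 replicates 1 and 2) under scaling by total counts (adjusted p = 0.0509) and with no filter on low counts (adjusted p = 0.126), with log2 fold changes from -0.32 to -0.24 over the alternatives.

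Jph1, the junctophilin found mainly in skeletal muscle (chr1:17012318-17168113, minus strand), had 4078 and 4327 normalized counts in Control and 4859 and 4807 in EDA-A2. Its groups did not overlap, in the opposite direction to Jph2. The log2 fold change was 0.20 with a standard error of 0.07 and did not pass the test (adjusted p = 0.119 by edgeR), except under scaling by total counts (adjusted p = 0.0490).

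**Figure D2:**
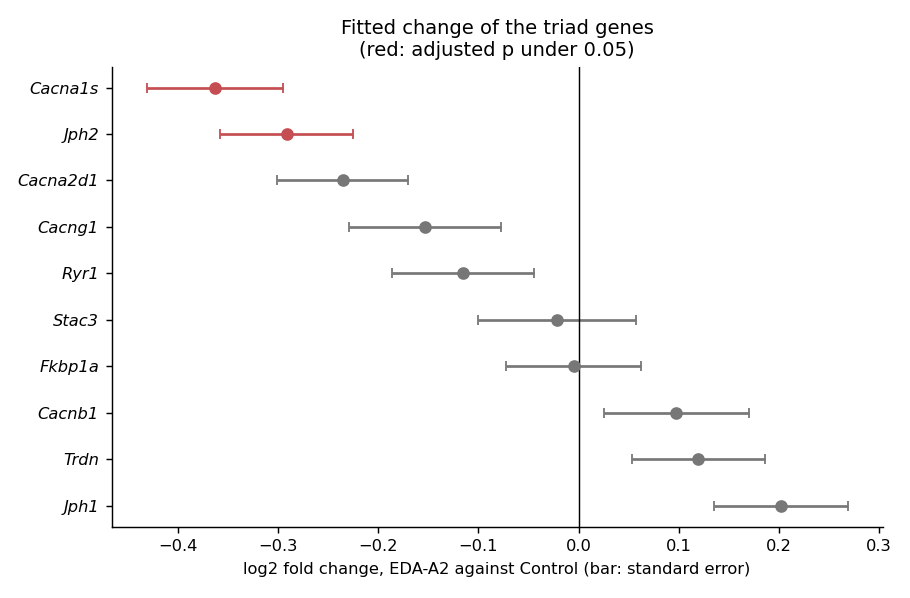
Fitted log2 fold change of EDA-A2 against Control (x axis) for the 10 triad genes (y axis), with bars of 1 standard error. Cacna1s at -0.36 and Jph2 at -0.29 (red) are the 2 genes with an adjusted p under 0.05, and the genes form a graded series up to Jph1 at 0.20.

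Of the 10 genes, 6 share exonic bases with a gene on the opposite strand (Cacna1s, Cacnb1, Fkbp1a, Jph1, Ryr1 and Trdn). Reads from such pairs are told apart only if the counting used strand, and the strand option is not given in the sources used here. The overlapping genes that the tables hold had at most 16 counts in any library. Jph2, Cacna2d1, Cacng1 and Stac3 share none.

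Levels per length order the genes by how much transcript was present, and here they are normalized counts per kb of annotated exon. In Control, Jph2 (2016 ± 68.0, SD, n = 2) and Cacng1 (2008 ± 196) had the highest levels and were not apart. Fkbp1a (911 ± 33.6) and Cacna1s (891 ± 46.4) came next and overlapped each other. Jph1 (716 ± 30.0), Ryr1 (699 ± 41.1) and Cacnb1 (698 ± 57.4) could not be ordered, and below them Cacna2d1 (502 ± 7.72), Stac3 (375 ± 13.8) and Trdn (274 ± 9.12) were each apart from the next.

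After EDA-A2 the order was Cacng1 (1805 ± 53.1), Jph2 (1647 ± 20.8), Fkbp1a (908 ± 28.9), Jph1 (823 ± 6.27), Cacnb1 (746 ± 4.05), Cacna1s (693 ± 14.8), Ryr1 (645 ± 28.7), Cacna2d1 (426 ± 1.12), Stac3 (370 ± 12.3) and Trdn (298 ± 5.82), and no neighbours overlapped. Cacna1s thus stood in the fourth place in Control and in the sixth after EDA-A2, behind Jph1 and Cacnb1. Several places depend on the length used. Per kb of the longest annotated transcript, Jph2 (2413) stood above Cacng1 (2356) after EDA-A2, Trdn stood above Stac3 in both groups, and Cacna1s stood in the sixth place in Control and in the eighth after EDA-A2.

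Ratios of counts within a library do not depend on the scaling between libraries, and 10 pairs were compared. Cacna1s had 1.76 and 1.84 counts per count of Cacnb1 in Control and 1.28 and 1.33 in EDA-A2. Per count of Ryr1, the channel it controls, it had 0.470 and 0.475 in Control and 0.380 and 0.417 in EDA-A2. Per count of Stac3 it had 6.28 and 5.54 in Control and 4.48 and 4.84 in EDA-A2. The pore subunit was thus lower relative to its beta subunit, its adaptor and its release channel in both EDA-A2 libraries. Cacna2d1, which moved in the same direction as Cacna1s, had more counts per count of Cacna1s in both EDA-A2 libraries (1.71 and 1.65) than in Control (1.54 on average).

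Between the junctophilins the shift was wider. Jph2 had 3.51 and 3.15 counts per count of Jph1 in Control and 2.37 and 2.36 in EDA-A2. The mean of the log2 ratios differed by -0.49 (EDA-A2 minus Control). The ratio of Ryr1 to Trdn was 2.83 and 2.48 in Control and 2.29 and 2.21 in EDA-A2. Only the ratio of Ryr1 to Fkbp1a, of the 10, overlapped between groups (2.29 and 2.00 in Control, 2.09 and 1.88 in EDA-A2). By normalized counts, 22.2% of all genes tested were apart in the lower direction and 22.8% in the higher one. No such share was computed for ratios. All pairs but Ryr1 with Fkbp1a and Ryr1 with Trdn hold a gene called by edgeR (Cacna1s, Jph2, Stac2, Ryr3 or Rrad). Those ratios thus partly restate the calls. With 2 libraries against 2, the two-sided exact permutation test cannot give less than p = 0.333. The 9 ratios that did not overlap reached this value, so that none of these ratios could pass a threshold.

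**Figure D3:**
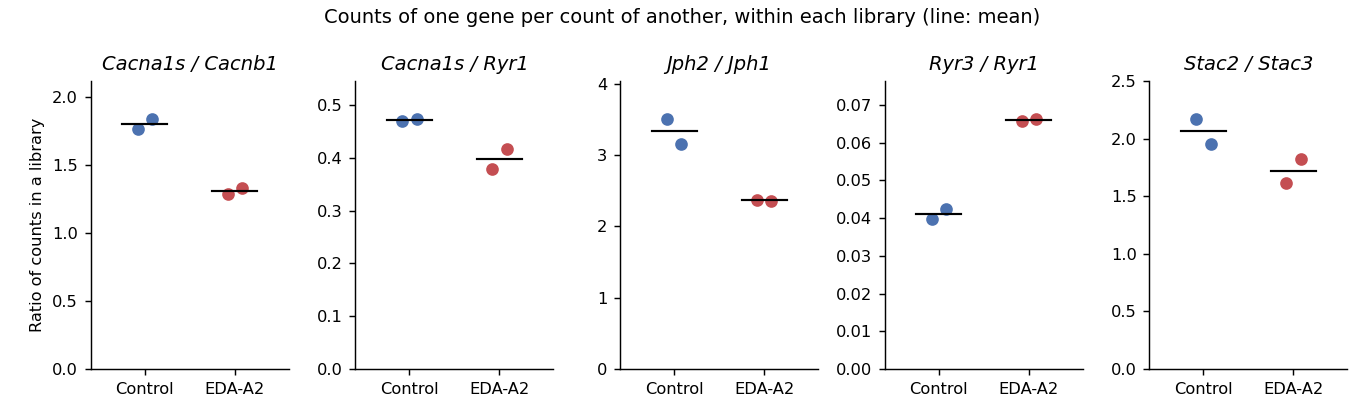
Counts of the first gene per count of the second within each library (y axis, linear from 0), for 5 of the pairs, with 1 point per library and a line at the group mean. Cacna1s / Cacnb1, Cacna1s / Ryr1, Jph2 / Jph1 and Stac2 / Stac3 are lower in both EDA-A2 libraries (red) than in both Control libraries (blue), and Ryr3 / Ryr1 is higher.

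Each triad protein belongs to a family, and the paralogues say which version of the triad these cells transcribed. Of 23 paralogues 13 passed the filter, and of these 1 was lower (Stac2) and 1 higher (Ryr3) after EDA-A2. Of all genes tested, 2.13% were lower and 2.45% higher. The higher paralogue, Ryr3, is the ryanodine receptor of immature muscle and brain (chr2:112461699-113047441). Ryr3 had 632 and 619 normalized counts in Control and 955 and 906 in EDA-A2. It rose by 0.57 on the log2 scale with a standard error of 0.09 (adjusted p = 0.00110 by edgeR). Its share of the ryanodine receptor family, in counts per length, was 4.37% and 4.64% in Control and 7.03% and 7.10% in EDA-A2. Ryr1 held 95.6%, 95.4%, 93.0% and 92.9% in the same order, and Ryr2, the cardiac receptor, had at most 1 count in a library. Ryr1 thus remained the main receptor in all 4 libraries, with a larger minor part of Ryr3 after EDA-A2.

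Stac2, a relative of Stac3 that also binds L-type channels (chr11:97927446-97944288), held more of the STAC family than Stac3 did. It had 2593 and 2451 normalized counts in Control and 1996 and 2144 in EDA-A2. Its log2 fold change was -0.29 with a standard error of 0.07 (adjusted p = 0.0363 by edgeR). Its share per length was 63.8% and 61.4% in Control and 56.7% and 59.5% in EDA-A2, and that of Stac3 was 34.8% and 37.3% in Control and 41.6% and 38.8% in EDA-A2, while the normalized counts of Stac3 overlapped.

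Among the junctophilins, Jph2 held 74.7% and 72.7% of the counts per length in Control and 66.6% and 66.5% in EDA-A2, and Jph1 held 25.1% and 27.2% in Control and 33.2% and 33.3% in EDA-A2. Jph3 and Jph4, the junctophilins of the nervous system, held the small rest. The Jph2 and Jph1 values after EDA-A2 were close together and outside the range of the Control libraries.

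In the other families the leading paralogue kept its place with little movement. Cacna1s held 99.9% of the CaV1 pore subunits in every library, with the cardiac Cacna1c at 20.2 to 21.6 normalized counts and Cacna1d and Cacna1f at 0. Cacnb1 shared the beta family with Cacnb3, at 59.4% and 57.8% in Control and 60.6% and 60.1% in EDA-A2. Cacng1 held 74.2% to 79.9% of the gamma family, Cacna2d1 98.4% to 99.0% of the alpha-2/delta family, and Fkbp1a 85.1% to 87.3% of the FKBP12 pair. The share of the leading paralogue did not overlap between groups in 5 of the 8 families. For normalized counts of single genes, an unlike measure, 22.2% of all genes tested were apart in the lower direction and 22.8% in the higher one. No such rate was computed for shares within families. The count of families became 8 without EDA-A2 replicate 1, and a group of 1 library is apart more easily than a group of 2.

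**Figure D4:**
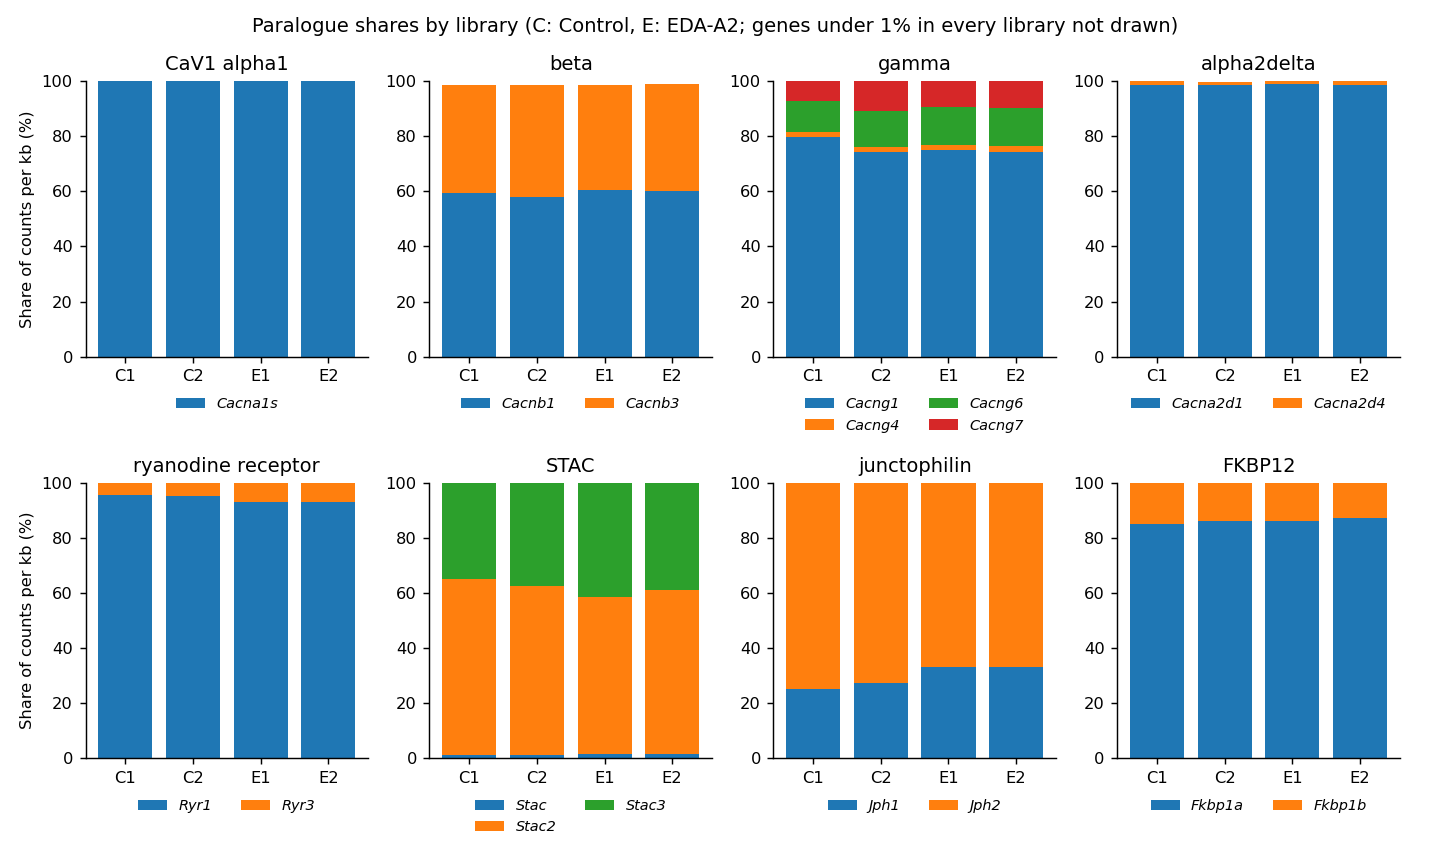
Share of each paralogue in the summed counts per kb of exon of its family (y axis, percent), in Control replicates 1 and 2 (C1, C2) and EDA-A2 replicates 1 and 2 (E1, E2), without genes that stayed under 1% in every library. Ryr3 takes 7.03% and 7.10% after EDA-A2 against 4.37% and 4.64% in Control, and Jph1 takes 33.2% and 33.3% against 25.1% and 27.2%.

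The other genes of the pathway were taken from 5 lists of 87 genes: the paralogues above, triad and T-tubule structure, modulators of the ryanodine receptor and the channel, the SR store and its pump, and membrane excitability. Of the 75 that passed the filter, 9 were lower and 4 were higher after EDA-A2, and 62 did not pass the test, where 2.13% of all genes tested were lower and 2.45% higher. Without Control replicate 1 or Control replicate 2 both counts were 0, as for all genes of the table, and without EDA-A2 replicate 1 they were 3 and 3. The median over the 75 was -0.08 on the log2 scale.

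The list of triad and T-tubule structure had 4 of 17 genes lower and 0 higher, beside 2.13% and 2.45% of all genes tested, around a median of -0.16 on the log2 scale. Cav3, the muscle caveolin that takes part in forming T-tubules, fell furthest: it had 5278 and 4242 normalized counts in Control and 3155 and 3119 in EDA-A2 (log2 fold change -0.60, standard error 0.09, adjusted p = 0.000826 by edgeR). Trim72, the membrane repair protein MG53 and the gene of this list with the highest level per length, had 15703 and 17004 in Control and 12413 and 12524 in EDA-A2 (log2 fold change -0.39). Ank1, whose small muscle form ties the SR to the myofibril, changed by -0.34 on the log2 scale and Ehd1, an endocytic recycling protein, by -0.38. All 4 were apart between groups, as Jph2 was. The structural list thus had its calls in the direction of Jph2 and none in that of Jph1.

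Of the modulators, 2 of 19 tested genes were lower and 3 higher, beside 2.13% and 2.45% of all genes tested. The median of this list was 0.00 on the log2 scale. The largest difference of the pathway lists was in Rrad (Rad), a small GTPase of the RGK family, whose members bind the beta subunit of calcium channels and lower the current. Rrad had 891 and 736 normalized counts in Control and 2860 and 2868 in EDA-A2, a log2 fold change of 1.82 with a standard error of 0.09 (adjusted p = 1.04e-08 by edgeR). Gem, of the same RGK family, had 638 and 615 in Control and 1120 and 1208 in EDA-A2 (log2 fold change 0.89, standard error 0.09, adjusted p = 2.23e-05 by edgeR). Rem1, also an RGK gene, had at most 1 count in any library. Rrad and Gem, the RGK genes tested here, were thus higher, with both EDA-A2 libraries above both Control libraries.

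Relative to the subunit its protein binds, Rrad was higher too. It had 0.210 and 0.195 counts per count of Cacnb1 in Control and 0.665 and 0.672 in EDA-A2. The other modulators that passed the test were Ero1a, an oxidase of the endoplasmic reticulum and the gene of this list with the highest level per length (log2 fold change 0.27), Prkaca, the catalytic subunit of protein kinase A (-0.35), and Hrc, the histidine-rich calcium-binding protein of the SR, which binds triadin (-0.29).

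Of all genes tested, 2.13% were lower and 2.45% higher. Of the 16 genes of the SR store and pump, 1 was lower and 0 were higher. It was Stim1, the sensor of store calcium, with 3670 and 4185 normalized counts in Control and 3042 and 3105 in EDA-A2 (log2 fold change -0.35, standard error 0.07, adjusted p = 0.0119 by edgeR). Orai1, the channel that Stim1 opens, had a log2 fold change of -0.27 and did not pass (adjusted p = 0.0946 by edgeR). Casq2, a calsequestrin and the gene of this list with the highest level per length, had a log2 fold change of -0.08, Casq1 0.19, and the calcium pumps Atp2a1 and Atp2a2 -0.07 and -0.30, none of which passed the test.

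Membrane excitability had 1 of 10 genes lower and 0 higher, beside 2.13% and 2.45% of all genes tested. Chrna1, the acetylcholine receptor subunit with the highest level per length of this list, had a log2 fold change of -0.16, and the skeletal muscle sodium channel Scn4a had -0.19. Neither passed the test.

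**Figure D5:**
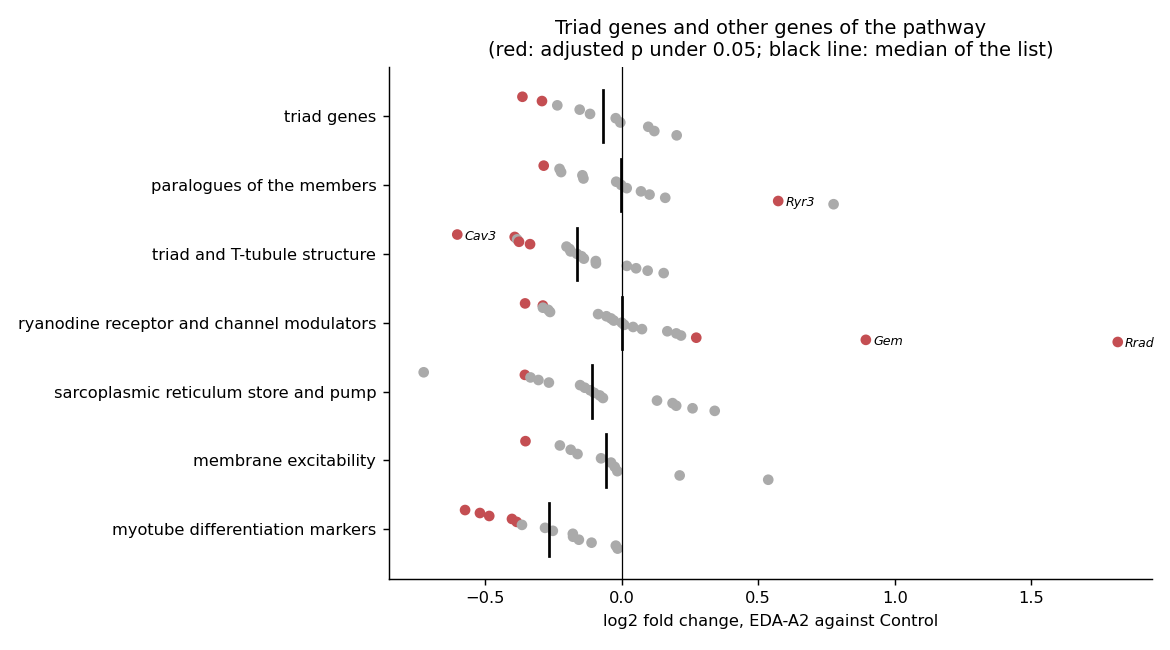
Fitted log2 fold change of EDA-A2 against Control (x axis) for each tested gene of the triad, of the 5 pathway lists and of the myotube markers (y axis, 1 point per gene). Red points have an adjusted p under 0.05 and black lines mark the median of each list, which is -0.07 for the triad genes and -0.27 for the myotube markers. Among the red points Rrad at 1.82, Gem at 0.89 and Ryr3 at 0.57 lie furthest on the higher side.

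Some genes of the contractile apparatus were lower beside Cacna1s and Jph2. Of the 14 markers of myotube differentiation, 5 were lower (Acta1, Myh3, Myh8, Tnnc2 and Mylpf, all of the sarcomere) and 0 higher. Of all genes tested, 2.13% were lower and 2.45% higher. Tnnc1 (-0.28), Ttn (-0.25), Tnnt3 (-0.16) and Neb (-0.11), also of the sarcomere, did not pass. All 14 markers had a fitted value below 0, and their median log2 fold change was -0.27, beside -0.00 over all genes tested. The summed normalized counts of the 14 markers were 1049530 and 990947 in Control and 785063 and 780864 in EDA-A2. Mylpf, a fast myosin light chain and the marker with the highest level per length, had a log2 fold change of -0.48. The fusion gene Mymk (-0.01) and Des (-0.02), which encodes desmin, were near 0 and did not pass. The part of this shift in the lower Cacna1s and Jph2 was not tested.

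Some markers of other cells were called too, where 2.13% of all genes tested were lower and 2.45% higher. Of the 6 myoblast markers, Cdh15 was lower (log2 fold change -0.47) and Vcam1 higher (0.53), and Myod1, the marker with the highest level per length, was at -0.07. None of the 6 markers of dividing cells or of the 4 fibroblast markers tested passed the edgeR test, and their summed normalized counts were 21945 and 26057 in Control against 24513 and 24066 in EDA-A2 for dividing cells and 49596 and 51542 against 47309 and 47993 for fibroblasts. Of the 4 smooth muscle markers tested Tagln was lower (-0.43), with Acta2 the most abundant at 0.23. The macrophage markers summed to 237 to 371 normalized counts per library, the endothelial markers to at most 36.3 and those of neurons and Schwann cells to 70.1 to 106, and none of these passed the test. The part of these cells in the values of the triad genes was not tested.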

How the data were processed

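Polyadenylated RNA of the 4 libraries was made into stranded libraries and sequenced in pairs. Per the labels, the authors used FastQC 0.11.9, MultiQC 1.12, Trim Galore 0.6.5, STAR 2.7.3a on GRCm39 and HTSeq 0.11.1. The deposited values are whole-number counts per Ensembl gene, not normalized. The annotation release and strand option are not given in the sources used here.

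Differences were fitted with edgeR 4.0.16 under R 4.3.3, using TMM scaling, filterByExpr (at least 10 counts, total of 15), the quasi-likelihood fit (glmQLFit, glmQLFTest) on condition alone and Benjamini-Hochberg adjustment over 15173 genes and a threshold of 0.05. A normalized count is the count times the mean effective (TMM) library size over that of its library. Standard errors are the log2 fold change over the square root of F. Lengths and positions came from GENCODE vM39. DESeq2 1.42.0, other scalings and filters, length and GC offsets, a replicate block and leaving out each library were alternatives. The steps were tested on simulated counts.

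The members and lists were chosen with earlier results of these data known. Named were every triad gene and, of each pathway list, every gene called and the one with the highest level per length, the leading paralogues and the most abundant markers. The other genes given (such as Orai1 and Rem1) were added after their values were seen. Some genes of the lists are counted but not reported here by name.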

Additional observations from a re-analysis of the deposited data

How the results depend on the processing

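Of the 10 triad genes, 2 were called lower and 0 higher. Scaling by total counts gave 1 lower and 1 higher, with 194 genes lower and 485 higher of all tested in place of 323 and 371. Without a filter 0 triad genes were lower, and 0 and 2 of the other pathway genes were lower and higher in place of 9 and 4, with 25545 genes tested and 22 and 64 called. Leaving out 1 library gave 0 to 1 triad genes lower, 0 to 6 other pathway genes lower and 0 to 3 higher, a median log2 fold change of the triad genes from -0.108 to -0.050, and 5 to 8 families with shares apart; without Control replicate 1 or Control replicate 2, 0 genes of the whole table passed edgeR's threshold (2179 and 2448 at an unadjusted p under 0.05), against 164 lower and 238 higher without EDA-A2 replicate 1 and 170 and 207 without EDA-A2 replicate 2. These fits assume that the lone library varies like the other group.

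The median of -0.07 became -0.013 under total counts and -0.030 with length and GC offsets. The replicate numbers are no known pairing (correlation of same-numbered deviations 0.060). The replicate block gave 3 triad genes lower, adding Cacna2d1 (adjusted p = 0.0367), 12 other pathway genes lower, and 529 genes lower and 537 higher of all. With offsets and a replicate block the median was -0.030, and 15 other pathway genes were lower, of 728 lower and 589 higher in all. Signs turned for the genes near 0: Stac3 was at 0.033 and Fkbp1a at 0.050 under total counts, and leaving out 1 library gave -0.057 to 0.017 for Stac3 and -0.040 to 0.034 for Fkbp1a. Of 200 values recomputed, 160 were scored as unchanged. A fold change had to keep its direction and side of the threshold, and a median had to move by less than the spread. Counts could differ by a limited factor. Thus 3 triad genes lower in place of 2, and 12 other pathway genes lower in place of 9, were scored as unchanged. The cause of the changes was not tested.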
